A study of Mus musculus with 12 samples.

Results

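The 10 genes described here are widely used marks of the mature neutrophil, the short-lived white blood cell that leaves the bone marrow fully formed and is the first to enter injured tissue. They were taken by name from a table of 37583 genes, and all 10 had a row in it. Gene expression had been measured by total RNA sequencing in blood of wild type mice after burn/tenotomy, a skin burn combined with cutting of a tendon. The blood had been enriched on a microfluidic device, the iChip, and the product is labelled cMPCs and blood cells, where cMPCs are circulating mesenchymal progenitor cells, cells tied in the series title to HO (heterotopic ossification, bone formed in soft tissue). There were 3 groups of 4 libraries, taken 6 h, 1 day and 7 days after injury (6h, Day1 and Day7), and all 3 carried the same genotype and the same injury. No uninjured group was analysed here, and the labels give no age, sex or strain and do not say whether replicates were separate animals or pools, so p-values measure only the spread between these libraries, which may be technical.

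Neutrophils ripen in the marrow in steps. Precursors fill their granules first and stop making granule transcripts as they mature, while receptors for chemokines, growth factors and microbial products come on late. S100a8 and S100a9 encode the calcium-binding subunits of calprotectin, the main protein of the neutrophil cytosol, released as an alarm signal. Cxcr2 is the chemokine receptor that draws the cells out of the marrow, and Csf3r is the receptor of the growth factor G-CSF. Trem1 and Clec4d are activating receptors that amplify inflammatory signals, Il1r2 is a decoy receptor that binds interleukin-1 without signalling, and Retnlg is a secreted protein of the resistin family. Mxd1 is a transcription factor that opposes Myc in maturing cells, and Hdc makes histamine. Monocytes also express S100a8, S100a9 and Clec4d, basophils and mast cells express Hdc, and Mxd1 is active in many maturing blood cells, so no member alone defines a neutrophil in mixed blood.

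The letters just before the transcription start are shown for the 3 genes that passed a test below and for S100a9, the partner subunit of S100a8. The sequences are from RefSeq on GRCm38.p6, a different build from the mm9 used for the counts, and run 5′ to 3′ on the gene's own strand. All 10 members had an entry. S100a8 (chr3:90668821-90669070, plus strand) and S100a9 (chr3:90695722-90695971, minus strand) are neighbours on chromosome 3. Mxd1 is at chr6:86669160-86669409 on the minus strand and Trem1 at chr17:48232489-48232738 on the plus strand. Capitals mark matches, on either strand, to TTGCNNA (part of the C/EBP site), GAGGAA (the core read by PU.1 and other ETS factors) or CACGTG (an E-box, the kind of site Mxd1 itself binds); no match of one motif overlapped a match of another in these windows.
S100a8: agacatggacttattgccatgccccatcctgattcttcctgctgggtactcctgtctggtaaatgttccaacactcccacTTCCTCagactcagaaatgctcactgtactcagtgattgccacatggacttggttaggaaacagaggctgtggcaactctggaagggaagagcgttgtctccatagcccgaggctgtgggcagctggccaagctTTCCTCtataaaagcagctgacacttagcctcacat
S100a9: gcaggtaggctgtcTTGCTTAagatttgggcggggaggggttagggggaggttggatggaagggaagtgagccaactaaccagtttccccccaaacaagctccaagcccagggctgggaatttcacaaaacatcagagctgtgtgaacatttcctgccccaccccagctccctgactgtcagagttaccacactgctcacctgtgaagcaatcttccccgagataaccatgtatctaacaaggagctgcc
Trem1: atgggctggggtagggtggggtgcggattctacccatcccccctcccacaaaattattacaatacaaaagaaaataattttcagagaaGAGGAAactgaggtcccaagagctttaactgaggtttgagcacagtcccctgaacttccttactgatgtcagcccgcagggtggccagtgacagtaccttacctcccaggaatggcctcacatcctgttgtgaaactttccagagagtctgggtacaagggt
Mxd1: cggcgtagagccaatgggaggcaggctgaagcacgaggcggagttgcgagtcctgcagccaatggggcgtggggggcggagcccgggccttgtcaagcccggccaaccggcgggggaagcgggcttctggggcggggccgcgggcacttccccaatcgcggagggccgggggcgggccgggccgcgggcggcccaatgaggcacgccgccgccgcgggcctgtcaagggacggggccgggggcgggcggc

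Within 250 bases before the start, GAGGAA was present in 5 of the 10 members (S100a8, Cxcr2, Csf3r, Trem1 and Clec4d) and in 23.3% of 32851 promoters. In S100a8 it occurred at 170 and 36 bases before the start, and in Trem1 at 162. TTGCNNA was present in S100a9 and Retnlg and in 32.8% of all promoters, and CACGTG in Il1r2 and in 6.02%. None of the 3 strings was in the Mxd1 window. These matches are descriptions of letters, not of binding.

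A library held between 5098395 and 12379041 recovered reads, of which haemoglobin genes took 16.1% to 70.3%. Genes with at least 1 read ranged from 7631 in 6h replicate 1 and 7635 in Day7 replicate 3 to 16647 in Day1 replicate 2. The deposited values are whole reads multiplied by 1 constant per library, and the worth of 1 read ran from 0.0314 (Day1 replicate 2) to 0.617 (Day7 replicate 3), so the scale differed between libraries by more than their depth did. Reads of Y-linked genes were found in 6h replicates 3 and 4 and in Day1 replicates 2, 3 and 4, and in no Day7 library. The members together took 0.00791% (Day1 replicate 4) to 0.150% (Day7 replicate 1) of the reads outside haemoglobin. Between 4 and 10 of them were detected in a library, with all 10 in 6h replicate 4 and in Day7 replicates 1 and 4. In bulk blood, fewer cells of a type and less RNA per cell cannot be told apart.

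Calprotectin transcripts were the most abundant of the members per unit of length at each time. At 6h the deposited value of S100a8 was 58.4, 0.379, 0 and 41.4 in replicates 1 to 4. At Day1 it was 7.29, 6.88, 29.4 and 0. At Day7 it was 292, 38.3, 91.9 and 196. The lowest Day7 library therefore lay above the highest Day1 library but below 6h replicates 1 and 4, and both early groups held libraries with 1 read or none. The means were 25.1 ± 29.5 at 6h, 10.9 ± 12.8 at Day1 and 155 ± 113 at Day7 (SD, n = 4 each), a ratio of 14.2 between the Day7 and Day1 means.

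S100a9 followed S100a8 closely from library to library. Its values were 74.7, 17.8, 2.17 and 32.9 at 6h. They were 15.2, 11.2, 38.1 and 0 at Day1. They were 255, 19.3, 132 and 113 at Day7, where replicate 2 fell within the Day1 range. In Day1 replicate 4 neither calprotectin gene had a read, and a count of 0 there allows up to 0.310 reads in every 1000000 of the library (a floor of 3 reads, counting error only). Over the 12 libraries the log2 levels of the pair correlated with r = 0.91 and rho = 0.95 (permutation test, adjusted p = 0.00045 and 0.00135 over 45 pairs of members), and r was 0.85 without the 2 libraries farthest from the median of S100a8. With each time's mean removed r was 0.87 (permutation test, adjusted p = 0.00517). That p-value is likely too small, as the permutations mixed libraries of different times. A single time has too few libraries for its own r.

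The balance of the 2 subunits can be read within a library, where the scale cancels. S100a8 is the shorter gene (389 against 519 bases), so equal levels per length would give it 42.8% of the calprotectin reads. Its share was 55.7% in 6h replicate 4, 53.4% in Day7 replicate 1, 66.4% in Day7 replicate 2 and 63.4% in Day7 replicate 4, each with a 95% Wilson interval above that point. In 6h replicate 1 (43.9%, 40.3 to 47.6), Day1 replicate 3 (43.5%, 40.3 to 46.8) and Day7 replicate 3 (41.0%, 36.1 to 46.2) the interval held it. It lay below in Day1 replicate 1 (32.4%, 26.0 to 39.5) and Day1 replicate 2 (38.0%, 34.1 to 42.0). In 6h replicate 2 the share was 2.08% of 48 reads, and 6h replicate 3 had 9 reads of S100a9 and none of S100a8. The intervals cover counting error within 1 library and test no difference between times.

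**Figure D1:**
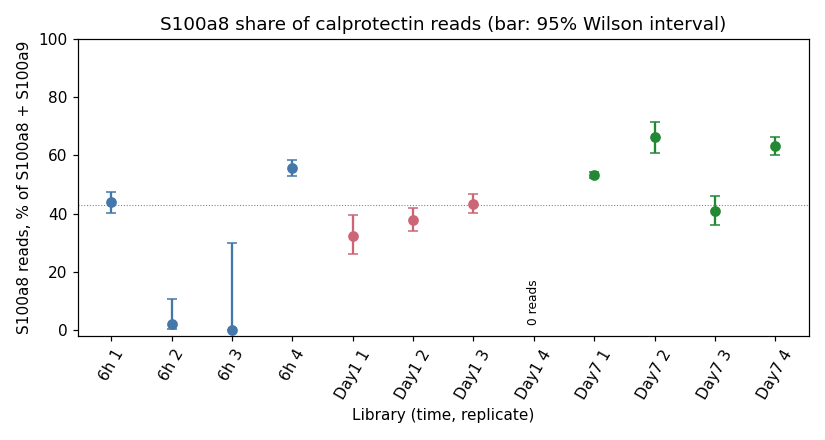
S100a8 reads as a percentage of S100a8 plus S100a9 reads in each library (vertical axis), with 95% Wilson intervals as bars and libraries along the horizontal axis; the dotted line at 42.8% marks equal levels per length. The 3 measured Day1 libraries lie between 32.4% and 43.5%, and 3 of the 4 Day7 libraries lie above the line.

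On the deposited scale Trem1 was low before Day7. At 6h its values were 0, 0, 0 and 2.52, and at Day1 they were 0.494, 0.848, 0.758 and 0.0389. At Day7 they were 13.2, 25.3, 7.40 and 12.6, from 192, 132, 12 and 38 reads. As deposited, each Day7 library was above each earlier one, and the Day7 mean of 14.6 ± 7.56 was 27.3 times the Day1 mean of 0.535 ± 0.363 (SD, n = 4 each). The 4 Day1 libraries held 42 reads together, and at 6h the same number of reads came from replicate 4 alone. Day7 replicate 3, with 12 reads, had fewer than Day1 replicate 2 (27) or 6h replicate 4 (42). In these libraries 1 read was worth 0.617, 0.0314 and 0.0599, in that order.

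Mxd1 was the member present in every library in good number, from 125 to 1155 reads. Its values were 61.2, 71.2, 33.8 and 54.8 at 6h, 15.4, 8.38, 35.0 and 11.5 at Day1, and 79.5, 158, 250.4 and 125 at Day7. The group means were 55.3 ± 15.8, 17.6 ± 11.99 and 153 ± 72.4 (SD, n = 4 each). On the deposited scale Day7 lay above both other times without overlap. Day1 and 6h overlapped through 1 library on each side, Day1 replicate 3 and 6h replicate 3.

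Among the other receptors, Clec4d had 23.9, 0, 3.38 and 106 at 6h, 4.45, 20.7, 14.5 and 8.14 at Day1 and 106, 162, 5.55 and 151 at Day7. Day7 replicate 3, with 9 reads, was within the Day1 range, while the other 3 Day7 libraries were above each Day1 library. Csf3r gave 0.747, 0, 1.21 and 10.5 at 6h, 8.03, 1.63, 3.19 and 0.272 at Day1 and 47.9, 8.04, 0.617 and 15.6 at Day7, and again Day7 replicate 3 (1 read) was low. Cxcr2 had reads in 4 of the 12 libraries: 288 in 6h replicate 4, 95 in Day7 replicate 1 and 2 each in Day7 replicates 3 and 4. Its deposited values in those 4 libraries were 17.3, 6.54, 1.23 and 0.665, and the 33557901 reads of the Day1 group held none, which allows up to 0.0894 reads in 1000000 over the group. Il1r2 was nearly as sparse, with 3.17, 0, 0 and 3.84 at 6h, 0, 0.816, 0 and 0.117 at Day1 and 12.9, 0, 0 and 0.333 at Day7.

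Retnlg had 0.747, 0, 0 and 27.3 at 6h, 4.33, 1.88, 4.93 and 0 at Day1 and 68.6, 5.55, 12.3 and 13.6 at Day7. As deposited, the Day7 libraries were all above the Day1 libraries, by a narrow margin in replicate 2, while 6h replicate 4 was second only to Day7 replicate 1. The values of Hdc were 0, 9.09, 10.1 and 11.3 at 6h, 5.44, 10.5, 9.40 and 0.934 at Day1 and 13.6, 0.957, 0.617 and 2.99 at Day7, so 3 of the 4 Day7 libraries were among its 5 lowest and the ratio of the Day7 to the Day1 mean was 0.691.

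**Figure D2:**
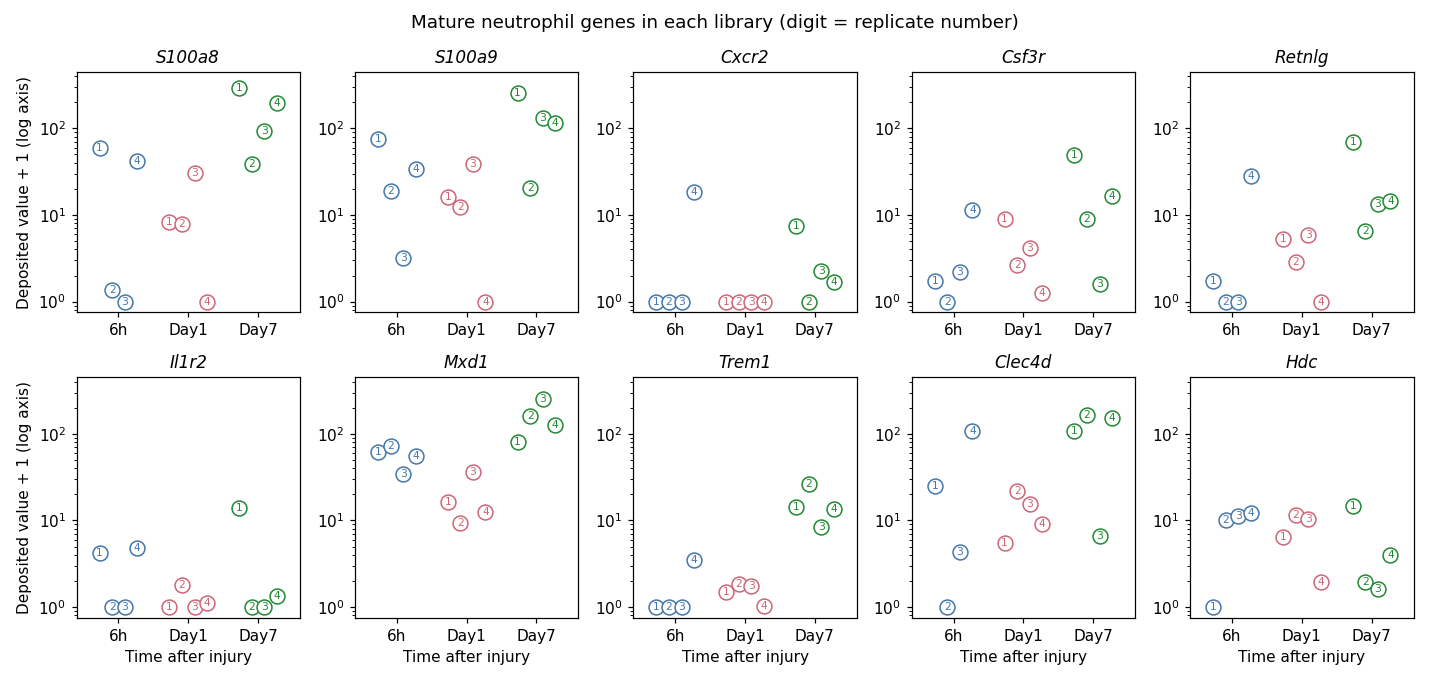
Deposited value plus 1 (log axis) of each of the 10 genes, one panel per gene, with the 4 libraries of each time after injury as circles that carry the replicate number. Trem1 and Mxd1 are highest in the 4 Day7 libraries, and Cxcr2 stands above 10 in 6h replicate 4 alone.

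Per kilobase of gene length, the mean deposited values at Day7 ordered the members as S100a8 (398), S100a9 (251), Clec4d (79.9), Retnlg (41.4), Mxd1 (32.9), Trem1 (4.73), Csf3r (4.24), Il1r2 (2.43), Hdc (1.01) and Cxcr2 (0.832). At Day1 the order began with S100a9 (31.1), S100a8 (28.0), Clec4d (8.97) and Retnlg (4.61), and at 6h with S100a8 (64.4), S100a9 (61.4), Clec4d (25.0) and Mxd1 (11.9). Given the ranges over libraries above, neighbours in these orders were not separated beyond their spread: at Day7 S100a8 ran from 98.4 to 751 per kilobase and S100a9 from 37.2 to 492. The step from Mxd1 (17.1 to 53.8) to Trem1 (2.39 to 8.16) was the one place in the Day7 order where neighbouring ranges did not meet.

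Between 6h and Day1 no member changed. limma on log2(value + 1), fitted across all 12 libraries and adjusted by Benjamini-Hochberg over 11211 genes, called 0 of the 8 members tested, and 0.169% of all genes. Cxcr2 and Il1r2 did not reach a value of 1 in 4 libraries and were not tested. Mxd1 had −1.74 (SE 0.73, limma adjusted p = 0.397) and was the one member with an unadjusted p below 0.05; edgeR and DESeq2 on the recovered reads also called 0. S100a9 differed by −1.08 and the other 6 by −0.20 to 0.38, with a median of 0.08 over the 8 against 0.52 over all genes. With 4 libraries a group and SE of 0.73 or more, differences of this size were not detectable, and 7 of the 8 (Mxd1 excepted) turned sign under at least 1 other scaling, tool or left-out library.

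From Day1 to Day7, S100a8, Mxd1 and Trem1 rose. As differences of log2(value + 1), a scale on which low genes appear to change less than they do, the values were 4.18 for S100a8 (SE 1.20, adjusted p = 0.0433), 3.13 for Mxd1 (SE 0.73, adjusted p = 0.0268) and 3.26 for Trem1 (SE 0.75, adjusted p = 0.0259). These are 3 of 8 members tested, beside 2.19% of all genes that rose. S100a9 (3.33, SE 1.08, adjusted p = 0.0593), Retnlg (2.48, adjusted p = 0.120), Clec4d (2.51, adjusted p = 0.153) and Csf3r (1.64, adjusted p = 0.285) had positive differences that did not pass, and Hdc had −0.75 (adjusted p = 0.630). The median of the 8 was 2.82 and that of all genes −0.48. A gene can enter the test through its 4 Day7 libraries alone, and Trem1 would not have entered without them. The count and median over the members that entered therefore describe them and support nothing further. Groups did not overlap on the deposited scale, with Day7 higher, for S100a8, Retnlg, Mxd1 and Trem1, against 8.47% of all genes.

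**Figure D3:**
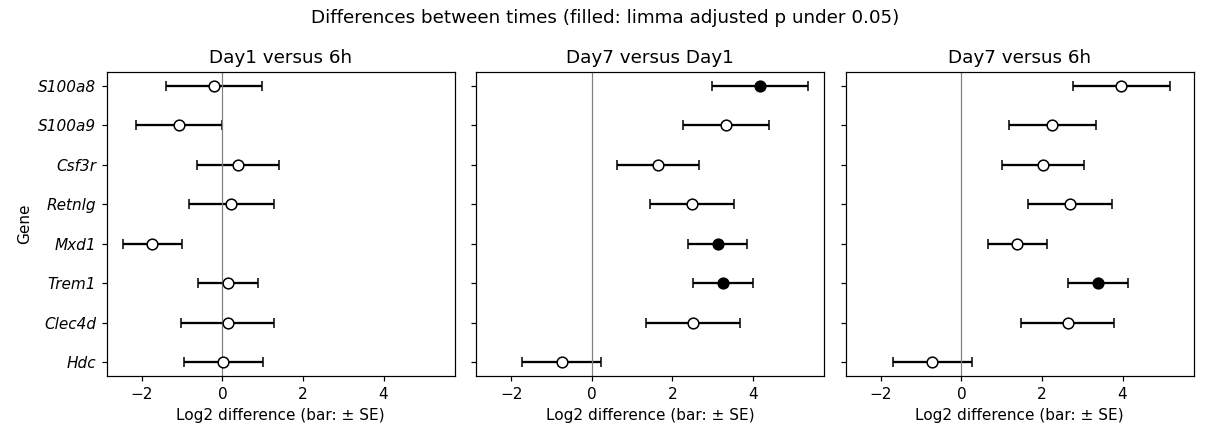
Difference in log2(value + 1) between times (horizontal axis) for the 8 members tested, with bars of 1 SE, in 3 panels for the 3 comparisons. Filled circles have a limma adjusted p below 0.05: S100a8, Mxd1 and Trem1 in Day7 versus Day1, and Trem1 in Day7 versus 6h.

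The scale of the table bears on these calls. Counted in each 1000000 reads outside haemoglobin, Trem1 was 2.12, 2.87, 2.88 and 0.15 at Day1 and 22.2, 33.8, 3.64 and 13.3 at Day7, still without overlap between these times. Counted in each 1000000 of all reads, Trem1 did overlap, with 2.41 in Day1 replicate 2 and 1.32 in Day7 replicate 3. Per reads outside haemoglobin, S100a8 was 31.3, 23.3, 112 and 0 at Day1 and 491, 51.2, 45.2 and 207 at Day7, and the groups overlapped. Mxd1 was 66.3, 28.4, 133 and 43.3 at Day1 and 133, 212, 123 and 132 at Day7, also with overlap. On that scale 0.232% of all genes rose from Day1 to Day7, and of the members Trem1 did (2.11, adjusted p = 0.0335), while S100a8 had 2.597 (adjusted p = 0.125) and Mxd1 1.31 (adjusted p = 0.157). All genes moved with the scale: their median difference was −0.48 as deposited and −1.62 per reads outside haemoglobin, and the calls over all genes went from 245 higher and 403 lower to 26 and 3768. Relative to the median of all genes, S100a8 differed by 4.66 as deposited and 4.22 per reads outside haemoglobin, Trem1 by 3.74 on both scales, and Mxd1 by 3.61 and 2.94.

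**Figure D4:**
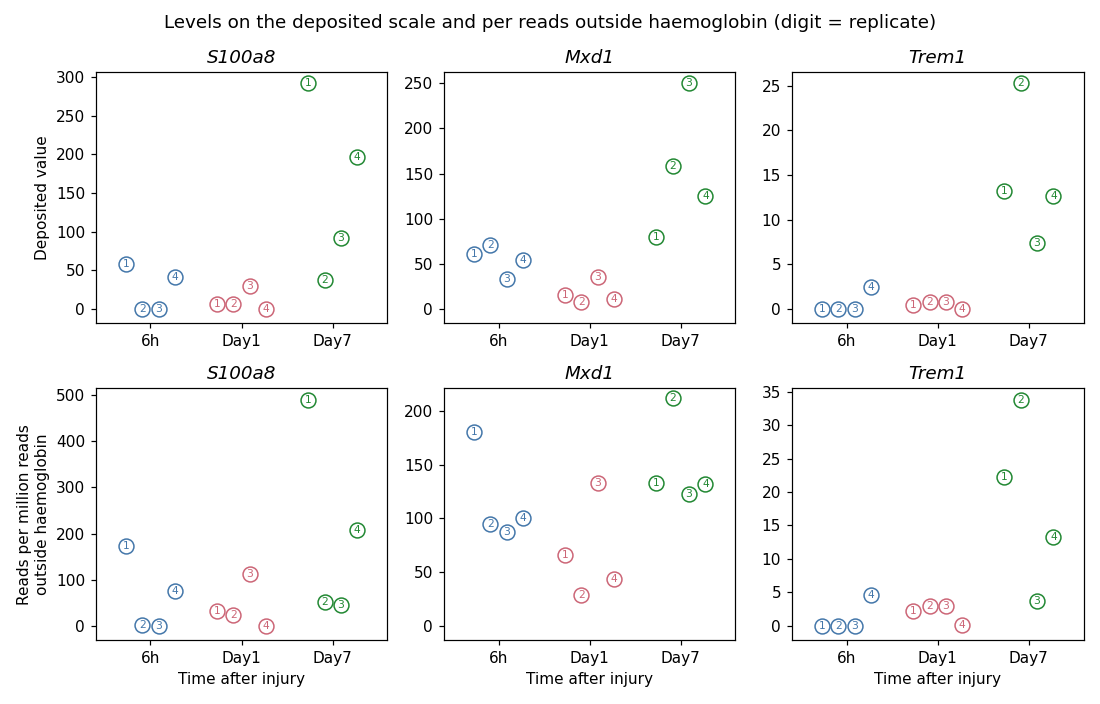
S100a8, Mxd1 and Trem1 in each library, as deposited values (upper row) and as reads in each 1000000 outside haemoglobin (lower row), on linear axes against time after injury, with replicate numbers in the circles. For Trem1 the Day7 libraries stay above the Day1 libraries on both scales, but in the lower row 6h replicate 4 (4.60) is above Day7 replicate 3 (3.64), and S100a8 and Mxd1 overlap.

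With 1 library left out, the differences from Day1 to Day7 stayed at 3.26 to 4.90 for S100a8, 2.85 to 3.51 for Mxd1 and 2.97 to 3.52 for Trem1, but calls near the threshold were lost. S100a8 did not pass without any one of the 8 Day1 and Day7 libraries (adjusted p 0.0569 to 0.130), Mxd1 without Day1 replicate 2, 3 or 4 or Day7 replicate 2, 3 or 4 (0.0538 to 0.0855), and Trem1 without Day1 replicate 2, 3 or 4 or Day7 replicate 2 (0.0664 to 0.0850). With a term for Y-linked reads, which no Day7 library had, none of the 3 passed (adjusted p 0.127 to 0.259), with differences of 3.84 for S100a8, 2.86 for Mxd1 and 3.65 for Trem1. edgeR's quasi-likelihood test on the recovered reads also called none of the 3 (adjusted p 0.110 to 0.172), while DESeq2 called 2 members and not S100a8 (adjusted p = 0.0954). Over all genes in this comparison, edgeR called fewer than limma and DESeq2 called more, as counted in the section on processing.

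Between 6h and Day7, Trem1 rose by 3.39 (SE 0.75, adjusted p = 0.0320), the one call among the 8 members tested and beside 0.607% of all genes. Outside Day7, only 6h replicate 4 (2.52) reached the filter value of 1 for Trem1, so this gene entered the test through its Day7 libraries. The call and the median over the members are therefore descriptions, and with no filter the call was lost. S100a8 had 3.97 (adjusted p = 0.0881), Retnlg 2.703, Clec4d 2.64, S100a9 2.25, Csf3r 2.02, Mxd1 1.39 and Hdc −0.73 (the last 6 with adjusted p of 0.175 to 0.723), with a median of 2.45 against 0.13 over all genes. As deposited, Mxd1 and Trem1 were higher in each Day7 library than in each 6h library, against 3.45% of all genes. Per reads outside haemoglobin both overlapped: Trem1 was 4.60 in 6h replicate 4 and 3.64 in Day7 replicate 3, and Mxd1 was 180 in 6h replicate 1, above the Day7 replicates other than 2. One library weighed heavily here. Without 6h replicate 4, in which Trem1, Retnlg, Clec4d and Cxcr2 were far above the other 6h libraries, 4 members passed: Trem1, S100a8 (4.79, adjusted p = 0.0213), Retnlg (3.84, adjusted p = 0.0164) and Clec4d (3.76, adjusted p = 0.0458). The share of all genes called in that fit is not given here. Over the fits with a library left out, calls over all genes in this comparison ran from 3 to 695, so the 4 are a description. The Trem1 call was lost without 6h replicate 2 or 3, Day1 replicate 2 or 3 or Day7 replicate 4 (adjusted p 0.0525 to 0.144), and per reads outside haemoglobin (2.61, adjusted p = 0.137). A moderated F test for any difference among the 3 times passed for 2.55% of genes and, of the members, for Trem1 (adjusted p = 0.0224) and Mxd1 (adjusted p = 0.0475). The Day7 comparisons share the Day7 libraries, so their values are given side by side only.

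Platelet markers, though not they alone, moved with most of the members. Of 8 markers, all had positive differences from Day1 to Day7 and 5 passed the test, among them Tubb1, the platelet tubulin (5.21, adjusted p = 0.00688), and Gp6, the collagen receptor (4.30, adjusted p = 0.0259). Summed over the 8, the value ran between 125 and 19546 at 6h, between 820 and 4902.5 at Day1 and between 17520 and 30644 at Day7, and none of the 8 was at 0 throughout. The 5 libraries with the highest sums were the 4 of Day7 and 6h replicate 4. The summed monocyte markers were also highest in these 5 libraries, at 1588 to 3301 at Day7 and 1975 in 6h replicate 4. The next library, 6h replicate 1, had 1165. The monocyte sum was mostly the lysozyme Lyz2, and 5 of the 8 tested monocyte markers had negative differences from Day1 to Day7. For Trem1 and Retnlg the same 5 libraries were the highest: Trem1 was 2.52 to 25.3 in them and 0 to 0.848 in the other 7, and Retnlg 5.55 to 68.6 against 0 to 4.93. For S100a8, Csf3r, Mxd1 and Clec4d, 4 of the 5 highest libraries were among them, as were the 4 libraries in which Cxcr2 had reads; for S100a9 and Il1r2 3, and for Hdc 2. The libraries fell into separate clusters on the platelet sum, so no correlation is given. The part of platelets in the members' differences was not tested.

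**Figure D5:**
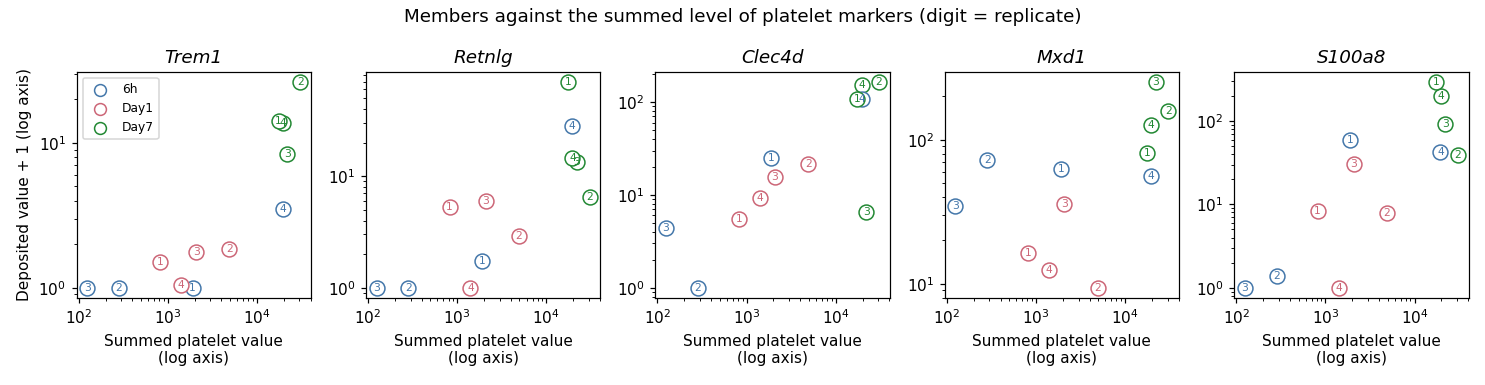
Deposited value plus 1 of 5 members (vertical axis, log) against the summed deposited value of the 8 platelet markers (horizontal axis, log) in each library, coloured by time and numbered by replicate. The 4 Day7 libraries and 6h replicate 4 stand apart at 17520 or more on the horizontal axis and hold the highest values of Trem1 and Retnlg.

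Genes of earlier stages and other marks of the neutrophil gave no call. Ly6g, a surface mark by which mouse neutrophils are usually sorted, had no read in any of the 12 libraries (99797430 reads, which allows up to 0.0301 reads in 1000000). Of 11 granule and precursor genes, Mpo, Elane, Ltf, Fcnb and Ms4a3 had no read in any library, and Lcn2, an iron-binding granule protein, was the one tested (−1.68 from Day1 to Day7, adjusted p = 0.342). The 16 other receptors and adhesion molecules gave 11 tested genes and 0 calls in each comparison; the most abundant, the integrin subunit Itgb2, had 2.97 from Day1 to Day7 (adjusted p = 0.0527). Itgb2 was 97.3, 2.65, 7.24 and 98.0 at 6h, 23.6, 29.8, 37.1 and 18.9 at Day1 and 175, 273, 184 and 238 at Day7, without overlap between Day1 and Day7 on the deposited scale. All 5 subunits of the phagocyte NADPH oxidase were tested with 0 calls, led by Cyba (2.45 from Day1 to Day7, adjusted p = 0.0865). The 11 secreted and effector products gave 10 tested and 0 calls; Lrg1, a secreted glycoprotein also made by liver, had 5.97 from 6h to Day1 (adjusted p = 0.0767). Of 6 neutrophil transcription factors 4 were tested with 0 calls, and Gfi1 had no read in any library. Over these 49 genes, 31 were tested, and from Day1 to Day7 20 had positive and 11 negative differences.

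Binding partners and pathway genes of the members were examined in 7 lists of 37 genes, of which 29 were tested. From Day1 to Day7 2 rose and 0 fell, and the other comparisons had 0 calls. One was Ppbp, a chemokine that binds Cxcr2 and is stored in platelets (4.06, adjusted p = 0.0415), with 165 to 1629 at Day1 and 6784 to 13220.1 at Day7. The other was Fcer1g, an adaptor through which Clec4d and several other receptors signal (3.71, adjusted p = 0.0382), with 49.5 to 207 at Day1 and 754 to 1656 at Day7. Tyrobp, the adaptor of Trem1, was 78.5, 17.6, 51.6 and 60.6 at Day1 and 105, 19.9, 0 and 53.5 at Day7, with full overlap. No other list of partners held a call: the 4 genes of G-CSF signalling (led by Stat3), the 5 of interleukin-1 signalling beside Il1r2 (Il1rap), the 4 tied to calprotectin sensing (Myd88), the 8 of the Max and Myc network (Mxi1, 2.68 from Day1 to Day7, adjusted p = 0.0658) and the 5 of histamine handling (Slc18a2).

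Markers of other blood cells and tissues give the setting of these values. Monocyte markers had 0 calls among 8 tested, led by Lyz2 (2.88 from Day1 to Day7, adjusted p = 0.0666), a lysozyme that neutrophils also express; summed over the list, the value lay between 87.5 and 1975 at 6h, between 196 and 561 at Day1 and between 1588 and 3301 at Day7. From Day1 to Day7 the erythroid list had 8 of 8 positive differences and 1 call, Gata1 (3.34, adjusted p = 0.0328), and the keratinocyte list had 2 calls, both lower, among 4 tested. Hepatocyte genes rose from 6h to Day1 in 6 of 7 cases and had 0 calls from Day1 to Day7. T cell (4 tested) and B cell (5 tested) markers had 0 calls in each comparison, no eosinophil marker reached the filter, and 2 tested Y-linked genes had 0 calls. The part of these cells in the members' differences was not tested.

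The members varied together in part. Of the 45 pairs, 40 had a positive r over the 12 libraries, from −0.33 (Mxd1 with Hdc) to 0.91, with a median of 0.52, and 10 had an adjusted p below 0.05 (permutation test). Beside the calprotectin pair, r was 0.85 for S100a8 with Retnlg, 0.84 for Csf3r with Retnlg, 0.78 for Cxcr2 with Retnlg and 0.73 for Trem1 with Clec4d; without the 2 libraries farthest from the median these were 0.77, 0.70, 0.68 and 0.58. With the mean of each time removed, 3 pairs had an adjusted p below 0.05: S100a8 with S100a9, Cxcr2 with Retnlg (0.90) and Csf3r with Retnlg (0.77). The last was at the threshold (permutation test, adjusted p = 0.0495). These permutations mixed all 12 libraries although removing the means left fewer free values, so their p-values are likely too small. Mxd1 with Trem1 went from 0.68 to −0.04 by the same step. The libraries share depth, scale and blood composition, which enter each of these values.

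Genes outside the list whose course was most like the members' were ranked by r with the mean of the standardized log2 levels of the 8 tested members over the 12 libraries, among 4351 tested genes with a mean of at least 10. Those nearest included Abtb1 (0.95), Lims1 (0.93), Tm7sf3 (0.93), Rbpms2 (0.93), Tspan17 (0.93), F2rl2 (0.92) and Nfe2 (0.91), and with the mean of each time removed their r was 0.79 to 0.87. They were chosen for this likeness, so it has no test. Abtb1, which encodes a protein with ankyrin repeats and a BTB domain, was 52.8, 25.4, 25.1 and 342 at 6h, 39.1, 71.3, 77.7 and 23.6 at Day1 and 415, 415, 195 and 466 at Day7. F2rl2, a protease-activated receptor known from mouse platelets, lay between 0.483 and 116 at 6h, between 0.467 and 15.9 at Day1 and between 179 and 257 at Day7. Nfe2, a transcription factor of megakaryocytes and red cell precursors, lay between 22.5 and 440.0 at 6h, between 25.0 and 55.1 at Day1 and between 282 and 739.9 at Day7. In these 3 genes, as in Trem1 and Retnlg, 6h replicate 4 was above each other 6h library and each Day1 library.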

How the data were processed

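Total RNA of 12 libraries was analysed, 4 at each of 3 times. Per the submitters' processing notes, STAR 2.7.10, HTSeq 2.0.1 and the build mm9 were used; annotation and scaling step: not given in the sources used here. In the deposited table each gene has a signal that the authors label CPM, although the columns do not share 1 sum. Whole reads were recovered from it: 100% of 450996 values were whole within 0.001 reads, with 1 exception. Totals were 5098395 to 12379041 reads.

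The main test was limma 3.58.1 (R 4.3.3) with trended variance on log2(value + 1), time as the sole factor, for genes reaching 1 in 4 or more libraries, adjusted by Benjamini-Hochberg (threshold 0.05). edgeR 4.0.16 and DESeq2 1.42.0 were run on the recovered reads. Correlations used 100000 permutations, two-sided (scipy 1.17.1), across all 12 libraries also where each time's mean had been removed. Alternatives were other pseudocounts, filters, scalings, terms and left-out libraries; a fit without the 2 libraries poorest in detected genes was chosen after seeing the data. Scripts were tested on simulated counts. Intervals and limits for 0 counts cover counting error only. Strand use in counting: not given in the sources used here.

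Members and the other 22 lists were chosen with earlier results of these data known. Genes named are the 10 members, called members of other lists (up to 4 each), the most abundant tested gene of each list, and the 8 genes most like the members, of which 1 is not reported here; Ly6g, Tyrobp and genes at 0 were named after their values were seen.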

Additional observations from a re-analysis of the deposited data

Results flagged for a closer look

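In 6 of 30 sets of 4 libraries (10 genes at 3 times), 1 library stood apart from the other 3 by Dixon's criterion, which chance meets in about 1 of 20 sets of normally distributed values. The values here are skewed with many at 0 (Cxcr2 at Day1 was 0 throughout), so that rate does not apply and the count of sets is a description. In 6h replicate 4, Cxcr2 was 17.3 where the other 3 libraries had 0, Retnlg was 27.3 where the next was 0.747, and Trem1 was 2.52 where the others had 0. Il1r2 was 12.9 in Day7 replicate 1 and at most 0.333 in the other Day7 libraries. Clec4d was 5.55 in Day7 replicate 3, below the next value of 106, and Hdc was 0 in 6h replicate 1, below the next value of 9.09. 6h replicate 1 and Day7 replicate 3 were the 2 libraries with the fewest genes detected, and 6h replicate 4 was the 6h library with the highest sum of platelet markers.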

How the results depend on the processing

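From Day1 to Day7, over 24 alternatives, Trem1 passed in 16 (adjusted p 0.00826 to 0.127), Mxd1 in 14 (0.00572 to 0.336), S100a8 in 7 (0.0110 to 0.259) and S100a9 in 3 (0.0370 to 0.431), all with positive differences. The members that rose numbered 1 with no filter, 0 scaled to all reads, 1 scaled to reads outside haemoglobin, 0 with edgeR, 0 with the Y-linked term and 0 to 4 with a library left out. From 6h to Day7 they numbered 0 with no filter, either of those scalings, edgeR or the 8 libraries of the 2 groups alone, and 0 to 4 with a library left out; from 6h to Day1 always 0. The cause was not tested. Genes that changed from 6h to Day1 numbered 19, and 0 with no filter, 1183 scaled to all reads, 425 to reads outside haemoglobin, 9 with TMM, 9 with edgeR, 193 with DESeq2, 2 with the Y-linked term, 4 without the 2 libraries with fewest genes, 82 in 8 libraries and 2 to 64 with a library left out. From Day1 to Day7 the 648 became 57 with no filter (1 of the members), 3957 and 3794 under the 2 scalings, 1 with edgeR, 1766 with DESeq2, 0 with the Y-linked term (1774 with an unadjusted p below 0.05), 416 without the 2 libraries, 1901 in 8 libraries and 3 to 1185 with a library left out. From 6h to Day7 the 99 became 13 with no filter, 0 scaled to all reads (968 with an unadjusted p below 0.05), 32 to reads outside haemoglobin (4 higher, 28 lower), 1060 with DESeq2, 7 in 8 libraries and 3 to 695 with a library left out.

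Differences from 6h to Day1 that turned sign were those of S100a8 (0.0123 with a pseudocount of 0.25, 0.49 and 0.37 under the 2 scalings, 0.78 without the 2 libraries with fewest genes), Retnlg (−1.38 with edgeR, −0.99 with DESeq2), Trem1 (−0.49 with edgeR, −0.20 with DESeq2, −0.00018 with the Y-linked term, −0.0212 without the 2 libraries), Clec4d (−1.59 with edgeR, −1.36 with DESeq2, −0.32 with the Y-linked term) and Hdc (−0.11 with TMM, −0.0187 with median-of-ratios, −0.42 with edgeR, −0.33 with DESeq2, −0.24 with the Y-linked term, −0.84 without the 2 libraries). With a library left out, these 6h to Day1 differences ran from −1.18 to 0.78 for S100a8, −1.96 to 0.00163 for S100a9, −0.10 to 1.10 for Csf3r, −0.25 to 1.36 for Retnlg, −0.0212 to 0.58 for Trem1, −0.996 to 1.25 for Clec4d and −0.84 to 0.59 for Hdc. From Day1 to Day7, Hdc was 0.0313 with the Y-linked term. Of 45 pairs, 10 passed, and 3 with each time's mean removed.

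Replicate numbers did not pair libraries: deviations of 12 same-numbered pairs correlated at −0.23 to 0.12, and 1 of 12 libraries correlated best with its own number. With the replicate block, genes that changed numbered 45, 571 and 156 in the 3 comparisons, and members 0, 3 and 1. Members with few reads (Cxcr2, Il1r2, early Trem1) are limited by depth.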

Other observations

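Basophils and mast cells, which make histamine with Hdc, had 10 markers in a list of their own, and 5 were tested with 0 calls. Their differences from Day1 to Day7 had a median of 1.99, the opposite sign to that of Hdc (−0.75). The most abundant, Gata2, a transcription factor of several blood lineages, was 18.9, 9.45, 29.7 and 9.46 at Day1 and 123, 112, 17.9 and 132 at Day7 (2.26, adjusted p = 0.133, limma). Cpa3, a mast cell protease, was 3.36, 1.14, 8.69 and 0 at 6h, 12.4, 0, 0 and 0 at Day1 and 70.2, 0, 1.23 and 20.0 at Day7. Hdc was highest of all in Day7 replicate 1 (13.6), the library in which Cpa3 was also highest, and in 6h replicates 2 to 4 Hdc was 9.09 to 11.3 with Cpa3 at 8.69 or less. Mcpt8, a basophil protease, had a value above 0 in 2 of the 12 libraries. Cpa3 was picked from the list by eye. Cma1 and Tpsb2, also in the list, had more reads over the libraries (3679 and 2962, against 1239 for Cpa3).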
